A study of Mus musculus with 18 samples.

Results

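The genes described here are the 9 that encode the pore-forming subunits of AMPA and kainate receptors, Gria1, Gria2, Gria3, Gria4, Grik1, Grik2, Grik3, Grik4 and Grik5, which were taken by symbol from the 30905 genes of the deposited count matrices. The study sequenced single nuclei of the hippocampus (Hip) and the prefrontal lobe cortex (PFC) of 9 Kun Ming mice, an outbred stock, as 18 droplet libraries, 1 per mouse and region. The 3 groups were germ-free (GF) mice 5, 6 and 7, specific pathogen-free (SPF) mice 30, 31 and 32, and colonized GF (CGF) mice 17, 18 and 19, and the labels give no other genotype, agent or treatment. All 9 mice were 8 weeks old, on the same light cycle, with free food and water. GF and CGF mice lived in flexible film isolators, and CGF mice were GF mice that shared an isolator with an SPF mouse until harvest, whereas SPF mice were housed elsewhere. Housing and microbial status can therefore not be told apart between GF and SPF mice. For each library the authors deposited a matrix of raw counts, genes by nuclei, in which each molecule of RNA counts once through its unique molecular identifier (UMI).

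AMPA receptors are tetramers of the products of Gria1 to Gria4 that carry most fast excitatory transmission in the brain, and the edited form of the Gria2 subunit keeps the channel nearly closed to calcium. Kainate receptors are tetramers in which the Grik1, Grik2 and Grik3 subunits can form channels by themselves, while the Grik4 and Grik5 subunits bind kainate with high affinity and need a partner of the first kind. In hippocampus, kainate receptors are best known at the mossy fibre synapses from dentate granule neurons onto CA3 pyramidal neurons, and both families are also found in interneurons and in oligodendrocyte precursor cells (OPC).

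Of 139924 barcodes, 138000 nuclei with at least 200 genes and at most 10% mitochondrial UMIs were kept, 71398 in Hip and 66602 in PFC. Clusters named by marker genes gave 13 cell types with 48174 nuclei in Hip and 14 with 47717 in PFC, 27 in all, of which 8 were found in both regions. They are called X-like because the names rest on these markers. In Hip the excitatory types were dentate granule-like, CA1-like, CA2-like, CA3-like and subiculum-like, and in PFC upper layer-like (Cux2), mid layer-like (Rorb), layer 5-like (Fezf2), near-projecting-like (Tshz2), and corticothalamic-like and intratelencephalic-like nuclei of layer 6. Both regions held Pvalb-like, Sst-like, Vip-like and Lamp5-like interneurons and astrocyte-like, oligodendrocyte-like, OPC-like and microglia-like glia. Nearly every marker of a type had a higher level in it than the mean over the other types of its region. The exceptions were 1 of 7 each in Vip-like nuclei of both regions and Lamp5-like nuclei of PFC, and 2 of 6 in mid layer-like nuclei. A given other type could still hold more of a marker.

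Libraries held 49067853 to 63217083 UMIs in Hip. In PFC the GF libraries stood apart, with 59126586 to 71463928 UMIs against 20336250 to 26949210 in the SPF libraries and 22213863 to 26151503 in those of CGF mice. The mitochondrial share of UMIs was 0.645% to 1.1% in GF against 0.0770% to 0.471% in the other mice of Hip, and 0.359% to 0.594% against 1.28% to 3.22% in PFC. In Hip the library of GF mouse 6 stood apart, with summed choroid plexus markers of 13.6 to 83.4 UMIs per 10000 over the cell types, against at most 25.2 in any other library. Without it 55 of 115 pairs were lower in GF than in SPF mice of Hip and 60 lower than in CGF mice, where 60 and 64 of 113 were with it, and 36 in place of 34 of 72 pairs differed between the regions. GF nuclei of the dentate granule-like, CA1-like and CA3-like types, and of all 6 excitatory types and all 4 glial types of PFC, fell mostly into clusters of their own, so that a type compares different clusters there. The smallest sums came from 14 nuclei in Hip and 71 in PFC, and any pair of libraries shared between 6 and 29 barcodes. In an alternative the sums of a type were thinned to the lowest mean UMIs per nucleus of its libraries, with the numbers of nuclei left as they were, and its values stand beside the counts below.

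A level is the number of UMIs of a gene per 10000 UMIs of a cell type in a library, that is, a share, so that less of a transcript and more of all others cannot be told apart. Levels are compared between cell types and mice but not between genes, since transcripts of different length and priming give different numbers of UMIs per molecule. On GRCm38, with GENCODE vM21, the genes for the AMPA receptor subunits are Gria1 on chromosome 11 from 57011387 to 57330244, Gria2 on chromosome 3 from 80681450 to 80802835, Gria3 on chromosome X from 41400854 to 41678601 and Gria4 on chromosome 9 from 4417896 to 4796234. The kainate receptor genes are Grik1 on chromosome 16 from 87895900 to 88290265, Grik2 on chromosome 10 from 49094833 to 49788766, Grik3 on chromosome 4 from 125490700 to 125714173, Grik4 on chromosome 9 from 42518135 to 42944493 and Grik5 on chromosome 7 from 25009849 to 25072346. Gria1, Gria3 and Grik3 are on the forward strand and the other 6 on the reverse strand. All are long genes. Grik5 spans 62.5 kb, the shortest of the 9, and Grik2 spans 693.9 kb, the longest.

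Among cell types the 9 genes had distinct patterns. Gria1 was highest in Sst-like interneurons, Gria4 in Pvalb-like interneurons and Grik1 and Grik2 in Lamp5-like interneurons of both regions, whereas Gria2, Grik4 and Grik5 were highest in excitatory neurons, with Grik4 concentrated in CA3-like nuclei. Values below are means ± SD over the 9 mice of the 3 groups, whose differences are part of the SD. Where all 9 mice had the same order of a pair of types next to each other in rank, the exact two-sided paired sign-flip test gave 0.0039, the smallest p that 9 mice allow. The ranks came from the same mice. All 9 mice agreed on 31 of 108 neighbouring pairs in Hip and 30 of 117 in PFC, and the other neighbours were not in one order in every mouse. Adjusted over the neighbouring pairs of all genes, 31 pairs of the 9 genes passed in Hip, against 8.22% of pairs over all genes, and 0 in PFC, against 0.0%. The pairs with one order in all mice have the smallest possible p in both regions, so that this adjustment passes all or none of them, and these counts do not compare the regions. Adjusted as planned over the pairs of the 9 genes, 53 of 108 passed in Hip and 47 of 117 in PFC. No share over all genes was computed for that adjustment, so these counts do not compare the 9 genes with others.

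Gria1, which encodes a subunit that is added to synapses during long-term potentiation, had the same leading type in both regions. Gria1 in Hip excitatory neurons averaged 38.8 ± 8.39 in CA2-like, 35.6 ± 5.25 in CA1-like, 32.8 ± 5.5 in subiculum-like, 32.3 ± 4.95 in dentate granule-like and 31.3 ± 5.98 in CA3-like nuclei. Gria1 in Hip interneurons averaged 56.3 ± 11.1 in Sst-like, 36.2 ± 7.17 in Pvalb-like, 15.4 ± 3.25 in Lamp5-like and 12.3 ± 2.24 in Vip-like nuclei. Gria1 in Hip glia averaged 4.25 ± 1.78 in microglia-like, 3.63 ± 1.23 in astrocyte-like, 3.4 ± 1.41 in oligodendrocyte-like and 2.88 ± 1.06 in OPC-like nuclei. Every mouse had Gria1 of Hip in the order Sst-like above CA2-like, CA3-like above Lamp5-like and Vip-like above microglia-like (3 of 12 neighbouring pairs). The Hip excitatory types thus lay close together, and the interneurons spread from the highest level of all types to less than that of any excitatory type. Gria1 in PFC excitatory neurons averaged 12.4 ± 1.34 in intratelencephalic-like, 11.6 ± 1.38 in layer 5-like, 8.89 ± 0.84 in corticothalamic-like, 8.46 ± 1.59 in upper layer-like, 7.27 ± 0.893 in mid layer-like and 5.27 ± 0.881 in near-projecting-like nuclei. Gria1 in PFC interneurons averaged 26.6 ± 3.57 in Sst-like, 16.8 ± 1.57 in Pvalb-like, 8.84 ± 0.976 in Vip-like and 7.35 ± 0.935 in Lamp5-like nuclei. Gria1 in PFC glia averaged 2.18 ± 0.811 in OPC-like, 1.93 ± 0.814 in microglia-like, 1.79 ± 0.775 in oligodendrocyte-like and 1.61 ± 0.794 in astrocyte-like nuclei. All mice agreed on Gria1 of PFC in Sst-like above Pvalb-like, Pvalb-like above intratelencephalic-like, layer 5-like above corticothalamic-like, mid layer-like above near-projecting-like and near-projecting-like above OPC-like (5 of 13 neighbouring pairs). UMIs behind a Gria1 level ran from 11 in microglia-like nuclei of a PFC library to 55412 in dentate granule-like nuclei of a Hip library.

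Gria2, the subunit that sets calcium permeability, was spread more evenly. Gria2 in Hip excitatory neurons averaged 24.7 ± 2.27 in CA3-like, 24.7 ± 1.94 in CA1-like, 24 ± 2.15 in subiculum-like, 21.7 ± 1.36 in CA2-like and 21.6 ± 1.37 in dentate granule-like nuclei. Gria2 in Hip interneurons averaged 12.6 ± 0.849 in Vip-like, 12.1 ± 0.609 in Lamp5-like, 11.8 ± 0.872 in Sst-like and 10.9 ± 0.61 in Pvalb-like nuclei. Gria2 in Hip glia averaged 19.1 ± 2.64 in astrocyte-like, 15.5 ± 1.78 in OPC-like, 9.57 ± 3.62 in microglia-like and 7.62 ± 2.78 in oligodendrocyte-like nuclei. For Gria2 in Hip, the order held in every mouse for astrocyte-like above OPC-like, Sst-like above Pvalb-like and microglia-like above oligodendrocyte-like (3 of 12 neighbouring pairs). The mean over excitatory types was 1.97 times that over interneuron types in Hip and 1.35 times in PFC, and astrocyte-like nuclei stood between the excitatory and the interneuron types in Hip. Gria2 in PFC excitatory neurons averaged 19.7 ± 1.88 in layer 5-like, 16.8 ± 1.77 in corticothalamic-like, 14.8 ± 1.74 in near-projecting-like, 14.6 ± 1.41 in intratelencephalic-like, 14.5 ± 1.62 in upper layer-like and 12.2 ± 1.52 in mid layer-like nuclei. Gria2 in PFC interneurons averaged 13.7 ± 2.21 in Vip-like, 10.9 ± 1.58 in Pvalb-like, 10.9 ± 1.8 in Sst-like and 10.2 ± 1.78 in Lamp5-like nuclei. Gria2 in PFC glia averaged 15.9 ± 2.95 in astrocyte-like, 14.6 ± 1.98 in OPC-like, 4.07 ± 0.936 in microglia-like and 3.68 ± 0.524 in oligodendrocyte-like nuclei. For Gria2 in PFC it held for layer 5-like above corticothalamic-like, mid layer-like above Pvalb-like and Lamp5-like above microglia-like (3 of 13 neighbouring pairs). UMIs behind a Gria2 level ran from 22 in microglia-like nuclei of a PFC library to 35289 in dentate granule-like nuclei of a Hip library.

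Gria3 encodes a subunit that pairs mostly with the Gria2 subunit. Gria3 in Hip excitatory neurons averaged 11.1 ± 1.82 in CA1-like, 10.6 ± 1.02 in subiculum-like, 8.99 ± 1.78 in CA2-like, 7.63 ± 1.09 in dentate granule-like and 7.12 ± 1.1 in CA3-like nuclei. Gria3 in Hip interneurons averaged 12 ± 1.57 in Sst-like, 11.3 ± 1.22 in Pvalb-like, 5.59 ± 0.705 in Lamp5-like and 2.46 ± 0.465 in Vip-like nuclei. Gria3 in Hip glia averaged 6.18 ± 0.915 in OPC-like, 2.13 ± 1.01 in microglia-like, 1.72 ± 0.735 in oligodendrocyte-like and 1.58 ± 0.611 in astrocyte-like nuclei. The Gria3 order of Hip held in all mice for subiculum-like above CA2-like and Lamp5-like above Vip-like (2 of 12 neighbouring pairs). Vip-like nuclei had the lowest neuronal level in both regions, with 4.86-fold between them and the highest neuronal type in Hip and 4.28-fold in PFC. Gria3 in PFC excitatory neurons averaged 12.7 ± 2.89 in layer 5-like, 10.6 ± 2.62 in upper layer-like, 10.2 ± 2.54 in corticothalamic-like, 7.47 ± 1.78 in intratelencephalic-like, 6.21 ± 1.49 in mid layer-like and 4.05 ± 1.1 in near-projecting-like nuclei. Gria3 in PFC interneurons averaged 7.07 ± 2.07 in Sst-like, 6.2 ± 1.64 in Pvalb-like, 4.78 ± 1.12 in Lamp5-like and 2.96 ± 1.28 in Vip-like nuclei. Gria3 in PFC glia averaged 4.95 ± 1.05 in OPC-like, 2.24 ± 0.731 in microglia-like, 1.9 ± 0.491 in oligodendrocyte-like and 1.51 ± 0.383 in astrocyte-like nuclei. The Gria3 order of PFC held in all mice for layer 5-like above upper layer-like, corticothalamic-like above intratelencephalic-like, Pvalb-like above OPC-like, Lamp5-like above near-projecting-like and near-projecting-like above Vip-like (5 of 13 neighbouring pairs). UMIs behind a Gria3 level ran from 9 in microglia-like nuclei of a PFC library to 24612 in upper layer-like nuclei of a PFC library.

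Gria4, whose subunit gives fast-gating receptors, was far higher in interneurons than in excitatory neurons of Hip, and less so in PFC. Gria4 in Hip excitatory neurons averaged 2.91 ± 0.446 in CA3-like, 2.31 ± 0.413 in CA1-like, 1.99 ± 0.383 in dentate granule-like, 1.76 ± 0.37 in CA2-like and 1.45 ± 0.235 in subiculum-like nuclei. Gria4 in Hip interneurons averaged 27.2 ± 4.52 in Pvalb-like, 24.8 ± 4.06 in Sst-like, 16.6 ± 3.36 in Lamp5-like and 12.9 ± 1.64 in Vip-like nuclei. Gria4 in Hip glia averaged 9.21 ± 1.38 in OPC-like, 2.67 ± 0.757 in oligodendrocyte-like, 1.19 ± 0.593 in microglia-like and 0.753 ± 0.351 in astrocyte-like nuclei. Steps of Gria4 in Hip shared by all mice were Sst-like above Lamp5-like, Lamp5-like above Vip-like, Vip-like above OPC-like, OPC-like above CA3-like, CA1-like above dentate granule-like and microglia-like above astrocyte-like (6 of 12 neighbouring pairs). Interneurons of Hip had 9.78 times the mean of its excitatory types, against 1.37 times in PFC, where near-projecting-like, intratelencephalic-like, mid layer-like and upper layer-like nuclei lay within the range of interneurons. Gria4 in PFC excitatory neurons averaged 11.1 ± 3.41 in near-projecting-like, 11.1 ± 1.86 in intratelencephalic-like, 8.64 ± 1.95 in mid layer-like, 7.35 ± 1.27 in upper layer-like, 4.18 ± 0.688 in corticothalamic-like and 2.57 ± 0.611 in layer 5-like nuclei. Gria4 in PFC interneurons averaged 14.4 ± 3.9 in Pvalb-like, 10.0 ± 2.82 in Lamp5-like, 9.57 ± 2.01 in Sst-like and 7.08 ± 1.28 in Vip-like nuclei. Gria4 in PFC glia averaged 6.12 ± 1.58 in OPC-like, 1.89 ± 0.203 in oligodendrocyte-like, 1.71 ± 0.738 in microglia-like and 1.0 ± 0.298 in astrocyte-like nuclei. Steps of Gria4 in PFC shared by all mice were Pvalb-like above near-projecting-like, Vip-like above OPC-like, OPC-like above corticothalamic-like, corticothalamic-like above layer 5-like and layer 5-like above oligodendrocyte-like (5 of 13 neighbouring pairs). UMIs behind a Gria4 level ran from 6 in microglia-like nuclei of a PFC library to 12784 in upper layer-like nuclei of a PFC library.

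Grik1, whose subunit forms channels by itself, was mostly a gene of interneurons, with a range among neurons of 360.1-fold in Hip and 131.3-fold in PFC. Grik1 in Hip excitatory neurons averaged 3.46 ± 1.41 in subiculum-like, 0.165 ± 0.069 in CA1-like, 0.103 ± 0.135 in CA2-like, 0.101 ± 0.0437 in dentate granule-like and 0.0732 ± 0.0369 in CA3-like nuclei. Grik1 in Hip interneurons averaged 26.4 ± 6.05 in Lamp5-like, 21.2 ± 4.39 in Sst-like, 14.2 ± 2.69 in Vip-like and 11.4 ± 3.18 in Pvalb-like nuclei. Grik1 in Hip glia averaged 3.58 ± 0.847 in OPC-like, 1.94 ± 1.32 in oligodendrocyte-like, 0.487 ± 0.133 in astrocyte-like and 0.445 ± 0.194 in microglia-like nuclei. In every mouse, Grik1 of Hip stood in the order Sst-like above Vip-like, Pvalb-like above OPC-like and microglia-like above CA1-like (3 of 12 neighbouring pairs). Interneurons had 23.4 times the excitatory mean in Hip and 5.34 times in PFC, and among excitatory types subiculum-like nuclei of Hip and near-projecting-like nuclei of PFC stood far above the others. Grik1 in PFC excitatory neurons averaged 8.94 ± 1.97 in near-projecting-like, 0.182 ± 0.0511 in layer 5-like, 0.135 ± 0.0512 in intratelencephalic-like, 0.126 ± 0.070 in corticothalamic-like, 0.101 ± 0.0407 in mid layer-like and 0.0914 ± 0.0316 in upper layer-like nuclei. Grik1 in PFC interneurons averaged 12 ± 2.14 in Lamp5-like, 11.6 ± 2.73 in Sst-like, 6.7 ± 1.57 in Pvalb-like and 3.78 ± 0.691 in Vip-like nuclei. Grik1 in PFC glia averaged 2.31 ± 1.21 in OPC-like, 0.689 ± 0.396 in oligodendrocyte-like, 0.453 ± 0.0984 in astrocyte-like and 0.288 ± 0.158 in microglia-like nuclei. The lowest oligodendrocyte-like level of each group came from CGF mouse 18, GF mouse 6 and SPF mouse 31 in both regions. In that order they had 0.817, 0.353 and 0.726 in Hip, where levels reached 3.67. In PFC they had 0.358, 0.18 and 0.228, where levels reached 1.29. In every mouse, Grik1 of PFC stood in the order near-projecting-like above Pvalb-like, Pvalb-like above Vip-like and OPC-like above oligodendrocyte-like (3 of 13 neighbouring pairs). UMIs behind a Grik1 level ran from 1 in CA2-like nuclei of a Hip library to 3343 in Sst-like nuclei of a Hip library, so that its low excitatory levels rest on few molecules in the small types.

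Grik2, which encodes the main subunit of kainate receptors in principal neurons, had UMIs in every type. In microglia-like nuclei its percent of the excitatory level never exceeded the highest of the neuronal reference genes given below. Grik2 in Hip excitatory neurons averaged 21.2 ± 4.27 in dentate granule-like, 20.9 ± 3.77 in CA3-like, 16.1 ± 2.74 in subiculum-like, 10.3 ± 1.84 in CA1-like and 7.27 ± 1.3 in CA2-like nuclei. Grik2 in Hip interneurons averaged 35.2 ± 4.46 in Lamp5-like, 24.3 ± 3.32 in Vip-like, 23.7 ± 3.87 in Sst-like and 19.1 ± 3.49 in Pvalb-like nuclei. Grik2 in Hip glia averaged 12.9 ± 2.7 in oligodendrocyte-like, 12.7 ± 1.34 in OPC-like, 7.38 ± 1.83 in astrocyte-like and 3.49 ± 2.05 in microglia-like nuclei. All 9 mice placed Grik2 of Hip with Lamp5-like above Vip-like, Pvalb-like above subiculum-like, subiculum-like above oligodendrocyte-like, OPC-like above CA1-like, CA1-like above astrocyte-like and CA2-like above microglia-like (6 of 12 neighbouring pairs). Dentate granule-like and CA3-like nuclei, which form both sides of the mossy fibre synapse, were highest among excitatory types of Hip, and oligodendrocyte-like nuclei had more than CA1-like nuclei. Grik2 in PFC excitatory neurons averaged 17.4 ± 5.56 in layer 5-like, 6.05 ± 1.9 in corticothalamic-like, 5.68 ± 1.71 in upper layer-like, 5.58 ± 1.45 in intratelencephalic-like, 4.86 ± 2.02 in near-projecting-like and 4.81 ± 1.47 in mid layer-like nuclei. Grik2 in PFC interneurons averaged 17.8 ± 5.43 in Lamp5-like, 17.2 ± 5.88 in Sst-like, 17 ± 5.0 in Vip-like and 13.1 ± 4.41 in Pvalb-like nuclei. Grik2 in PFC glia averaged 8.4 ± 2.81 in OPC-like, 8.16 ± 3.56 in oligodendrocyte-like, 3.13 ± 0.571 in astrocyte-like and 1.69 ± 0.697 in microglia-like nuclei. All 9 mice placed Grik2 of PFC with Vip-like above Pvalb-like, Pvalb-like above OPC-like, oligodendrocyte-like above corticothalamic-like and mid layer-like above astrocyte-like (4 of 13 neighbouring pairs). UMIs behind a Grik2 level ran from 8 in microglia-like nuclei of a PFC library to 37294 in dentate granule-like nuclei of a Hip library.

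Grik3, whose subunit gives receptors of low glutamate sensitivity, was led by Sst-like nuclei in Hip and by near-projecting-like nuclei in PFC. Grik3 in Hip excitatory neurons averaged 0.607 ± 0.258 in dentate granule-like, 0.575 ± 0.202 in subiculum-like, 0.133 ± 0.0412 in CA1-like, 0.0774 ± 0.097 in CA2-like and 0.0522 ± 0.0149 in CA3-like nuclei. Grik3 in Hip interneurons averaged 2.93 ± 0.40 in Sst-like, 0.934 ± 0.227 in Pvalb-like, 0.588 ± 0.157 in Vip-like and 0.195 ± 0.136 in Lamp5-like nuclei. Grik3 in Hip glia averaged 1.29 ± 0.169 in OPC-like, 0.189 ± 0.083 in microglia-like, 0.186 ± 0.0457 in oligodendrocyte-like and 0.15 ± 0.0231 in astrocyte-like nuclei. Mice agreed without exception on Grik3 of Hip for Sst-like above OPC-like and subiculum-like above Lamp5-like (2 of 12 neighbouring pairs). The highest neuronal type had 56.0 times the lowest in Hip and 49.8 times in PFC. A single sum was 0, that of Lamp5-like nuclei of a CGF mouse of Hip, where 3 UMIs, the limit that a count of 0 allows for counting error, would be a level of 0.274. Grik3 in PFC excitatory neurons averaged 7.08 ± 1.2 in near-projecting-like, 6.42 ± 1.15 in corticothalamic-like, 3.52 ± 0.722 in intratelencephalic-like, 2.37 ± 0.519 in mid layer-like, 1.25 ± 0.263 in layer 5-like and 0.142 ± 0.0464 in upper layer-like nuclei. Grik3 in PFC interneurons averaged 6.13 ± 1.3 in Sst-like, 1.11 ± 0.221 in Pvalb-like, 0.708 ± 0.291 in Vip-like and 0.403 ± 0.188 in Lamp5-like nuclei. Grik3 in PFC glia averaged 1.64 ± 0.605 in OPC-like, 0.602 ± 0.35 in microglia-like, 0.465 ± 0.224 in oligodendrocyte-like and 0.315 ± 0.127 in astrocyte-like nuclei. Mice agreed without exception on Grik3 of PFC for Sst-like above intratelencephalic-like, intratelencephalic-like above mid layer-like and astrocyte-like above upper layer-like (3 of 13 neighbouring pairs).

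Grik4 encodes a high-affinity subunit. Grik4 in Hip excitatory neurons averaged 11.6 ± 0.983 in CA3-like, 5.56 ± 1.14 in CA2-like, 2.87 ± 0.385 in dentate granule-like, 1.15 ± 0.167 in CA1-like and 0.212 ± 0.0817 in subiculum-like nuclei. Grik4 in Hip interneurons averaged 1.47 ± 0.58 in Lamp5-like, 1.34 ± 0.223 in Sst-like, 0.937 ± 0.208 in Vip-like and 0.395 ± 0.103 in Pvalb-like nuclei. Grik4 in Hip glia averaged 3.51 ± 0.362 in OPC-like, 0.803 ± 0.21 in oligodendrocyte-like, 0.473 ± 0.127 in astrocyte-like and 0.393 ± 0.161 in microglia-like nuclei. Ranks of Grik4 in Hip that held in each mouse were CA3-like above CA2-like, CA2-like above OPC-like, dentate granule-like above Lamp5-like and oligodendrocyte-like above astrocyte-like (4 of 12 neighbouring pairs). CA3-like nuclei had 54.7 times the level of subiculum-like nuclei, and OPC-like nuclei came before every interneuron type in both regions. Grik4 in PFC excitatory neurons averaged 4.94 ± 1.21 in corticothalamic-like, 4.08 ± 0.962 in intratelencephalic-like, 3.35 ± 0.743 in near-projecting-like, 2.92 ± 0.866 in upper layer-like, 1.83 ± 0.528 in layer 5-like and 1.49 ± 0.472 in mid layer-like nuclei. Grik4 in PFC interneurons averaged 3.45 ± 0.889 in Vip-like, 1.62 ± 0.526 in Lamp5-like, 0.706 ± 0.268 in Sst-like and 0.41 ± 0.0996 in Pvalb-like nuclei. Grik4 in PFC glia averaged 4.23 ± 0.81 in OPC-like, 0.885 ± 0.295 in oligodendrocyte-like, 0.421 ± 0.26 in microglia-like and 0.341 ± 0.165 in astrocyte-like nuclei. Ranks of Grik4 in PFC that held in each mouse were upper layer-like above layer 5-like (1 of 13 neighbouring pairs). UMIs behind a Grik4 level ran from 2 in microglia-like nuclei of a PFC library to 6362 in CA3-like nuclei of a Hip library.

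Grik5, which encodes the other high-affinity subunit, had a narrow range among neurons, 2.29-fold in Hip and 2.39-fold in PFC. Grik5 in Hip excitatory neurons averaged 1.89 ± 0.228 in CA3-like, 1.6 ± 0.185 in CA1-like, 1.53 ± 0.165 in dentate granule-like, 1.34 ± 0.26 in CA2-like and 1.01 ± 0.0824 in subiculum-like nuclei. Grik5 in Hip interneurons averaged 1.18 ± 0.257 in Lamp5-like, 1.17 ± 0.122 in Vip-like, 1.1 ± 0.089 in Sst-like and 0.822 ± 0.112 in Pvalb-like nuclei. Grik5 in Hip glia averaged 1.23 ± 0.112 in OPC-like, 1.1 ± 0.118 in astrocyte-like, 0.617 ± 0.134 in oligodendrocyte-like and 0.491 ± 0.149 in microglia-like nuclei. Grik5 of Hip was in one order in all mice for CA3-like above CA1-like and subiculum-like above Pvalb-like (2 of 12 neighbouring pairs). Like Grik4, its highest type in Hip was CA3-like. Grik5 in PFC excitatory neurons averaged 2.56 ± 0.454 in intratelencephalic-like, 2.52 ± 0.225 in corticothalamic-like, 2.0 ± 0.253 in mid layer-like, 1.81 ± 0.27 in upper layer-like, 1.35 ± 0.216 in layer 5-like and 1.32 ± 0.221 in near-projecting-like nuclei. Grik5 in PFC interneurons averaged 1.46 ± 0.426 in Lamp5-like, 1.42 ± 0.191 in Vip-like, 1.37 ± 0.216 in Sst-like and 1.07 ± 0.237 in Pvalb-like nuclei. Grik5 in PFC glia averaged 1.76 ± 0.39 in OPC-like, 1.67 ± 0.507 in astrocyte-like, 0.891 ± 0.422 in oligodendrocyte-like and 0.725 ± 0.397 in microglia-like nuclei. Grik5 of PFC was in one order in all mice for corticothalamic-like above mid layer-like (1 of 13 neighbouring pairs). UMIs behind a Grik5 level ran from 5 in microglia-like nuclei of a PFC library to 2970 in upper layer-like nuclei of a PFC library.

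Part of the glial levels lies in the range of neuronal RNA. As a reference, 5 neuronal genes (Slc17a7, Snap25, Syt1, Rbfox3 and Camk2a) were measured in each glial type as a percent of the mean level in excitatory types of the same region and group. They reached 27.6% to 185.5% for Slc17a7, the vesicular glutamate transporter, 44.8% to 93.7% for Snap25 and 7.41% to 23.5% for Rbfox3. Measured the same way, Gria4 and Grik1 of OPC-like nuclei were above the highest of the 5 in all 6 combinations of region and group, at 74.2% to 474.1% and 98.5% to 633.5%. Gria1 was above it in 0 of 6 in any glial type, with 6.39% to 27.9%, and in microglia-like nuclei no gene but Grik3, in 1 of 6, was above it. The excitatory mean leaves out interneurons, which had more Gria4 and Grik1, at 9.78 and 23.4 times it in Hip and 1.37 and 5.34 times in PFC. The other glial types of Hip averaged 0.75 to 2.67 for Gria4 and 0.44 to 1.94 for Grik1, against 9.21 and 3.58 in OPC-like nuclei. In PFC they averaged 1.0 to 1.89 and 0.29 to 0.69, against 6.12 and 2.31. The part of interneuron RNA in the OPC-like levels was not tested. The median of the 5 genes also differed between groups, at 9.91% to 14.4% in GF against 13.8% to 25.1% in SPF glia of Hip and 12.5% to 18.6% against 26.4% to 34.3% in PFC.

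To ask what the absence of a microbiota changed, GF and SPF mice were compared per cell type. In Hip, 5 of the 9 genes, Gria1, Gria3, Gria4, Grik1 and Grik2, were lower in GF mice in more types than not, and none of the 9 was higher in any type by edgeR. Of the 117 pairs of gene and type, 113 passed the filter on low counts (Grik1 in CA2-like and Grik3 in CA2-like, Lamp5-like and microglia-like nuclei did not), and 60 were lower and 0 higher by edgeR at an adjusted p under 0.05. Over all genes 15.3% of pairs were lower and 17.9% higher. Without adjustment 74 pairs were lower and 0 higher at a p under 0.05, and DESeq2 called 61 and 0. The median log2 fold change was -0.44. Thinned to the same mean UMIs per nucleus, 59 pairs were lower, and scaled by library totals 53.

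The 9 genes are long, and long genes as a whole were lower in GF mice of Hip. Among genes of at least 62.5 kb, the span of Grik5, 34.4% of pairs were lower and 3.98% higher, and in dentate granule-like nuclei the median of their log2 fold changes was -0.33 against 0.18 for shorter genes. With each library's trend against the length and GC content of genes removed, 16 pairs were lower and 10 higher, over all genes 6.11% and 13.7%, and the median was 0.01. Of the 60 pairs, 16 passed in the same direction without the trend, 30 no longer passed and 14 changed sign without it, Grik2 in 7 types, Gria4 in 4, Gria3 in 2 and Grik4 in 1.

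**Figure D1:**
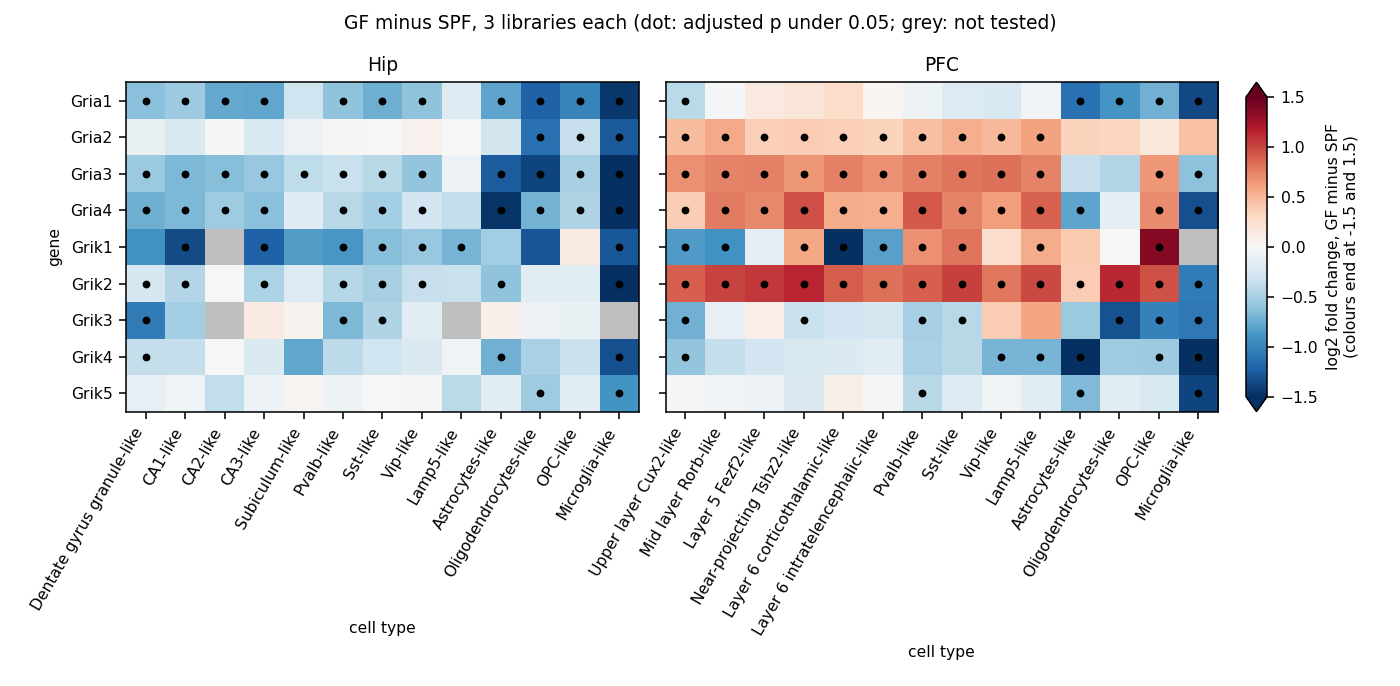
Log2 fold change of GF against SPF mice for each gene (rows) and cell type (columns) in Hip and PFC, from edgeR on 9 libraries per type and region; dots mark an adjusted p under 0.05, grey pairs were not tested and colours end at ±1.5. In Hip 60 of 113 pairs have a dot, all of them lower, while in PFC most dots of Gria2, Gria3, Gria4 and Grik2 in neurons are higher.

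Gria1 was lower in 11 of 13 Hip types. In dentate granule-like nuclei its levels were 25.1, 25.8 and 27.1 in GF and 36.1, 37.3 and 37.3 in SPF mice (log2 fold change -0.62, SE 0.06, adjusted p = 2.82e-05, edgeR). Sst-like nuclei, the type with the most Gria1, had 37.9, 42.5 and 45 in GF and 62.4, 63.6 and 65 in SPF mice (log2 fold change -0.74, SE 0.08, adjusted p = 4.93e-06, edgeR). The 3 GF mice lay below the 3 SPF mice in both types, and with the length and GC trend removed the log2 fold changes were -0.14, which did not pass, and -0.25, which did. Gria1 had the most pairs lower under that setting, 6 of 13. Gria3 was lower in 12 of 13 types, with 7.98, 9.29 and 9.52 in GF and 11.7, 13.2 and 13.4 in SPF mice in CA1-like nuclei (log2 fold change -0.67, SE 0.09, adjusted p = 1.01e-04, edgeR; -0.16 with the trend removed, which did not pass), again without overlap. With the trend removed, Gria3 was lower in 3 types, astrocyte-like, oligodendrocyte-like and microglia-like nuclei, and in none of the 9 neuronal types. Gria4 was lower in 11 types, and in Pvalb-like nuclei, its highest type, the levels were 21.7, 21.8 and 23.5 in GF and 26.5, 27 and 30.2 in SPF mice (log2 fold change -0.42, SE 0.10, adjusted p = 0.0062, edgeR). This difference was 0.05 with the trend removed.

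Gria2 stood apart from the other AMPA receptor genes, since its 3 lower types were all glia, oligodendrocyte-like, OPC-like and microglia-like. In oligodendrocyte-like nuclei the levels were 3.94, 3.96 and 4.23 in GF and 8.21, 9.31 and 10.4 in SPF mice (log2 fold change -1.12, SE 0.12, adjusted p = 3.37e-06, edgeR; -0.74 with the trend removed). Summed markers of astrocytes and OPC, both types with more Gria2, were lower in these nuclei too, at 2.96 to 3.33 in GF against 5.54 to 6.40 in SPF libraries (8 of 9 markers with a lower mean) and 6.08 to 8.16 against 10.0 to 10.8 (8 of 10). Their part in the Gria2 fall was not tested. In the 9 neuronal types its log2 fold changes were between -0.23 and 0.07, and none passed. With the trend removed, 4 of the 9 passed as higher in GF mice, dentate granule-like (0.27), Pvalb-like (0.39), Sst-like (0.37) and Vip-like nuclei (0.38). The median percent of the 5 reference genes was lower in GF glia of Hip too, as given above, and its part in the glial differences was not tested.

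Of the kainate receptor genes 23 of 61 pairs were lower, and of the AMPA receptor genes 37 of 52. Once the trend was removed, these were 3 lower and 6 higher, and 13 lower and 4 higher. Whether the families differ was not tested. Grik1 was lower in 7 of 12 types, among them all 4 interneuron types, and in Pvalb-like nuclei the levels were 6.39, 7.15 and 9.4 in GF and 11.7, 12.5 and 15 in SPF mice (log2 fold change -0.88, SE 0.13, adjusted p = 2.37e-04, edgeR; -0.39 with the trend removed, which did not pass). The groups did not overlap there. With the trend removed, Grik1 was lower in 1 of 12 types, CA1-like nuclei, and in 0 of 4 interneuron types, and was higher in 1, OPC-like nuclei. Grik2 was lower in 8 of 13 types, most in microglia-like nuclei with 0.749, 0.929 and 1.09 in GF and 3.71, 4.16 and 4.54 in SPF mice (log2 fold change -2.17, SE 0.19, adjusted p = 7.00e-09, edgeR; -0.84 with the trend removed). Once the trend was removed, Grik2 was lower in 1 and higher in 4 of 13 types. The lowest neuronal levels of Grik2 in SPF mice, those of CA2-like nuclei, were 6.16, 6.48 and 6.55. Markers of other glia were lower in the same GF nuclei, with summed levels of 1.55 to 4.26 in GF against 6.05 to 8.37 in SPF libraries for OPC markers (10 of 10 with a lower mean), 4.47 to 5.99 against 9.14 to 13.5 for oligodendrocyte markers (9 of 10) and 23.1 to 25.4 against 31 to 40.5 for astrocyte markers (7 of 9). None of these markers was at 0 in all 6 libraries, and their part in the Grik2 fall was not tested. Grik3 was lower in dentate granule-like, Pvalb-like and Sst-like nuclei, with 0.362, 0.381 and 0.709 in GF and 0.812, 0.945 and 0.99 in SPF mice in the first (log2 fold change -1.04, SE 0.21, adjusted p = 0.00207, edgeR; -0.61 with the trend removed). Without GF mouse 6 the falls of Grik3 in Pvalb-like and Sst-like nuclei did not pass. Grik4 was lower in 3 types (5 by DESeq2; 0 lower and 1 higher with the trend removed), dentate granule-like, astrocyte-like and microglia-like, but in CA3-like nuclei, its highest type, it did not pass at 9.7, 11.5 and 12.6 in GF and 10.8, 11.1 and 12.8 in SPF mice (log2 fold change -0.22, SE 0.09, adjusted p = 0.0611, edgeR). The TMM scaling of edgeR, which levels do not carry, moved log2 fold changes of CA3-like nuclei by -0.18. Grik5 was lower in 2 types, oligodendrocyte-like and microglia-like nuclei (1 by DESeq2 and 0 with the trend removed).

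In PFC the 9 genes split by gene. Gria2, Gria3, Gria4 and Grik2 were higher in GF than in SPF neurons, and Grik3, Grik4 and Grik5 were lower or did not pass. Grik1 went both ways by cell type and was lower only in the types with its lowest means. Of 126 pairs, 125 passed the filter (Grik1 in microglia-like nuclei did not), and by edgeR 50 were higher and 29 lower, against 24.5% and 23.9% over all genes, so that the share of lower pairs was that of the background. The GF libraries of PFC were deeper, and with sums thinned to the same mean UMIs per nucleus 49 were higher and 24 lower of 124. With the length and GC trend removed, 50 were higher and 19 lower (23.8% and 23.3% over all genes, and among genes of at least 62.5 kb, as fitted, 25.1% and 19.2%), and scaled by library totals 45 and 39. By class, 25 of 54 excitatory pairs were higher and 8 lower, where 27.2% and 26.5% were over all genes. In interneurons 19 and 5 of 36 were, against 21.8% and 21.3% over all genes, and in glia 6 and 16 of 35, against 20.7% in each direction.

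Gria3 was higher in all 10 neuronal types and in OPC-like nuclei, and lower in microglia-like nuclei by edgeR but in 0 types by DESeq2. Layer 5-like nuclei, with the most Gria3 in PFC, had 15.6, 16.5 and 16.9 in GF and 10.8, 11.7 and 11.8 in SPF mice (log2 fold change 0.75, SE 0.14, adjusted p = 1.91e-04, edgeR; 0.35 with the trend removed). Gria4 was likewise higher in all neuronal types and OPC-like nuclei, and lower in astrocyte-like and microglia-like nuclei. Its levels in Pvalb-like nuclei were 18.9, 19.1 and 20.1 in GF and 10.5, 11.3 and 11.5 in SPF mice (log2 fold change 0.91, SE 0.12, adjusted p = 8.83e-07, edgeR; 0.76 with the trend removed). Every GF mouse was above every SPF mouse in both examples. Gria2 was higher in all 10 neuronal types and in no glial type, with 12.4, 12.9 and 15.5 in GF and 10.3, 11 and 11.1 in SPF mice in mid layer-like nuclei (log2 fold change 0.57, SE 0.12, adjusted p = 7.26e-04, edgeR). These were smaller differences. With the trend removed, that of mid layer-like nuclei, 0.24, still passed, and those of layer 5-like, near-projecting-like and intratelencephalic-like nuclei turned to -0.11, -0.06 and -0.02. The TMM scaling of edgeR, which levels do not carry, added 0.08 to 0.23 to log2 fold changes in neuronal types of PFC. In layer 5-like nuclei it added 0.23. Gria2 levels overlapped there, with 18.37, 20.01 and 23.12 in GF and 16.61, 19.91 and 20.15 in SPF mice. They also overlapped in corticothalamic-like and intratelencephalic-like nuclei. Gria4 levels overlapped in layer 5-like and upper layer-like nuclei. In the latter they were 6.922, 7.824 and 10.36 in GF and 6.791, 7.115 and 7.604 in SPF mice.

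Gria1 did not follow them. By edgeR it was higher in 0 types of PFC (1 at an unadjusted p under 0.05 and 1 by DESeq2) and lower in 5, upper layer-like nuclei and all 4 glial types, with 0.703, 0.758 and 1.09 in GF and 1.73, 1.82 and 2.12 in SPF mice in astrocyte-like nuclei (log2 fold change -1.12, SE 0.24, adjusted p = 4.39e-04, edgeR; -0.91 with the trend removed). As a percent of the excitatory level, Gria1 of these nuclei was 10.3% in GF and 20.7% in SPF mice. Of the 5 reference genes, Syt1 was 10.6% and 23.4%, Rbfox3 7.41% and 15.2% and Camk2a 12.4% and 32.3%. Slc17a7, at 65.9% and 50.8%, and Snap25, at 50.8% and 44.8%, went the other way. Summed OPC markers of these nuclei were 2.40 to 3.20 in GF against 4.72 to 6.01 in SPF libraries (8 of 10 with a lower mean). Of the microglia markers 9 of 12, and of the oligodendrocyte markers 6 of 10, had a higher mean in GF libraries. The part of these signals in the Gria1 fall was not tested. In Sst-like nuclei, its highest type, the levels were 20.8, 22.6 and 24 in GF and 25.7, 29 and 29.4 in SPF mice (log2 fold change -0.21, adjusted p = 0.153, edgeR), which did not pass.

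Grik2 was the most widely changed gene of PFC, higher in 13 of 14 types and lower in microglia-like nuclei. Sst-like nuclei had 23.8, 24.1 and 26.8 in GF and 12.7, 13.4 and 13.7 in SPF mice (log2 fold change 1.02, SE 0.12, adjusted p = 9.55e-08, edgeR; 0.63 with the trend removed). In oligodendrocyte-like nuclei its levels were 11, 12.3 and 14.8 in GF and 5.36, 6.17 and 6.42 in SPF mice (log2 fold change 1.14, SE 0.16, adjusted p = 2.59e-07, edgeR; 1.35 with the trend removed). Neither pair of groups overlapped. Summed interneuron markers of these oligodendrocyte-like nuclei were 31.6 to 34.8 in GF against 11.5 to 13.3 in SPF libraries, of which Erbb4, a neuregulin receptor, made a mean of 31 and 10.7. Gad1 and Gad2, which make GABA, had means of 0.67 and 0.417 in GF and 0.515 and 0.184 in SPF libraries. Their part in the Grik2 rise was not tested. Grik1 was higher in near-projecting-like, Pvalb-like, Sst-like, Lamp5-like and OPC-like nuclei and lower in upper layer-like, mid layer-like, corticothalamic-like and intratelencephalic-like nuclei, the 4 types of PFC with the lowest means. OPC-like nuclei had 2.48, 3.87 and 4.38 in GF and 1.2, 1.41 and 1.71 in SPF mice (log2 fold change 1.38, SE 0.27, adjusted p = 1.17e-04, edgeR), and corticothalamic-like nuclei 0.0257, 0.0425 and 0.0451 in GF and 0.152, 0.177 and 0.196 in SPF mice (log2 fold change -2.03, SE 0.26, adjusted p = 6.74e-06, edgeR). No GF mouse overlapped with an SPF mouse in either type. The corticothalamic-like levels rested on 12 to 53 UMIs per library, with a UMI in 2.2% to 6.8% of nuclei. All 4 types with a fall had a lower mean than microglia-like nuclei, 0.288. The part of RNA from other cells in these falls was not tested. In the OPC-like nuclei summed interneuron markers were 55.7 to 56.7 in GF against 31.8 to 34.7 in SPF libraries, of which Erbb4 and Nxph1 made means of 25.2 and 29.2 in GF and 12.1 and 19.2 in SPF libraries, while Gad1 had 0.941 and 1.34. Their part in the Grik1 rise was not tested.

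Grik3, Grik4 and Grik5 were higher in 0 types by edgeR, at an unadjusted p under 0.05 and by DESeq2. Grik3 was lower in 7 of 14 types, among them OPC-like nuclei with 0.954, 1.13 and 1.25 in GF and 1.98, 2.47 and 2.58 in SPF mice (log2 fold change -1.02, SE 0.20, adjusted p = 1.73e-04, edgeR; -0.74 with the trend removed). Grik4 was lower in 6 types, 2 of them interneurons, and Vip-like nuclei, its highest interneuron type, had 2.02, 2.4 and 2.55 in GF and 3.86, 3.89 and 4.41 in SPF mice (log2 fold change -0.70, SE 0.14, adjusted p = 2.10e-04, edgeR; -0.55 with the trend removed). In both examples the GF mice lay below the SPF mice without overlap. Grik5 was lower in Pvalb-like, astrocyte-like and microglia-like nuclei, with 1.07, 1.12 and 1.13 in GF and 1.65, 1.69 and 2.1 in SPF mice in astrocyte-like nuclei (log2 fold change -0.66, SE 0.16, adjusted p = 0.00142, edgeR), but with the trend removed this was 0.04. All of Gria1, Gria3, Gria4, Grik2, Grik3, Grik4 and Grik5 were lower in GF microglia-like nuclei of PFC, but by DESeq2 Gria3 (adjusted p = 0.093) and Grik3 (adjusted p = 0.069) did not pass there. With the trend removed, Gria1, Gria4 and Grik4 passed. The median percent of the 5 reference genes was lower in GF than in SPF glia of PFC, whereas Snap25 was higher in all 4 glial types, at 83.2% against 70.3% in microglia-like nuclei. Slc17a7 also had a higher percent in all 4 glial types, at 116.6% against 81.0% in microglia-like nuclei. Its level in microglia-like nuclei was lower, 2.97 in GF against 3.98 in SPF mice, with an excitatory mean of 2.55 against 4.91. Their part in these falls was not tested.

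**Figure D2:**
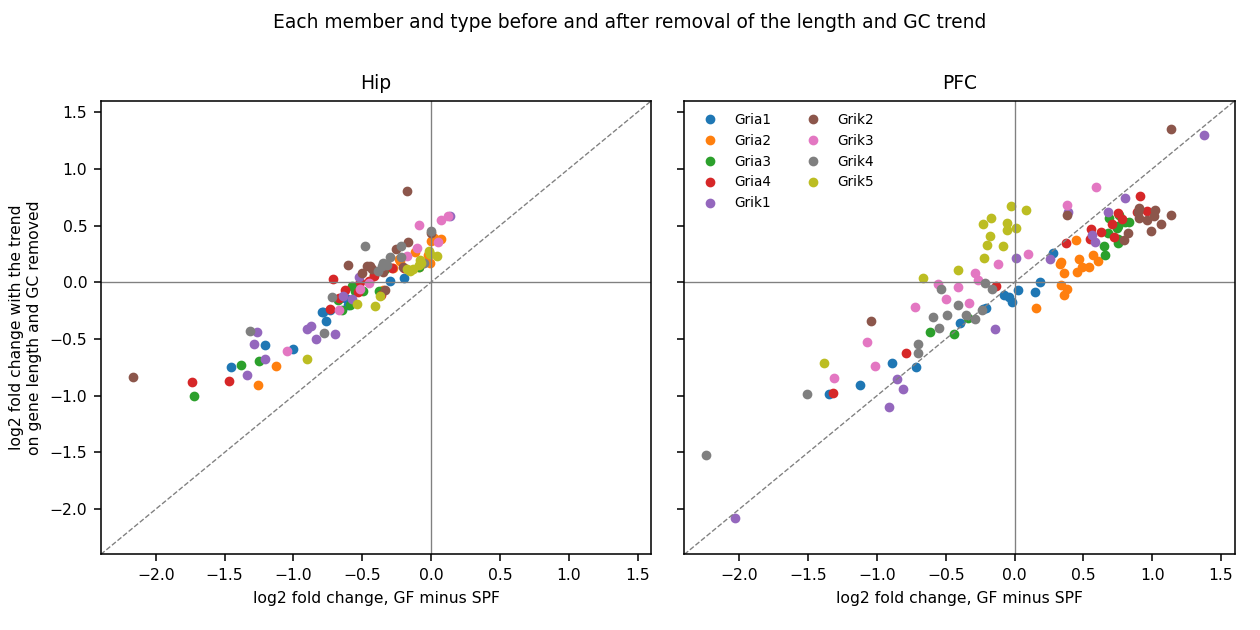
Log2 fold change of GF against SPF mice for each tested pair of gene and type as fitted (x axis) and with each library's trend against the length and GC content of genes removed (y axis), in Hip and PFC; the diagonal marks equal values. In Hip most points lie above the diagonal around 0, while in PFC points stay on both sides of 0.

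Whether colonization made a difference was read from GF against CGF mice. This comparison uses the same GF libraries as that with SPF mice, so the values are given side by side only. In Hip, 64 of 113 pairs were lower in GF than in CGF mice and 0 higher by edgeR (16.3% and 18.6% over all genes, 79 and 0 pairs at an unadjusted p under 0.05, and 60 and 0 by DESeq2). With the length and GC trend removed, 11 were lower and 7 higher (5.8% and 14.0% over all genes). Grik2 was lower in 12 of 13 types, with 16.6, 17.4 and 19 in GF and 24.7, 27.4 and 27.5 in CGF mice in dentate granule-like nuclei (log2 fold change -0.77, SE 0.08, adjusted p = 3.48e-05, edgeR), against 18, 18.9 and 21.4 in SPF mice. The GF and CGF mice did not overlap. Gria3 was lower in 12 types, Gria1 in 11 and Gria4 in 10, Grik1 in 7 of 12 (4 by DESeq2), Gria2 in 6, Grik4 in 4, and Grik3 and Grik5 in 1 each (0 by DESeq2).

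In PFC, 45 of 125 pairs were higher and 41 lower in GF than in CGF mice (24.0% and 23.4% over all genes). With the trend removed, these were 40 and 23 (23.6% and 22.8% over all genes), and thinned to the same mean UMIs per nucleus 45 and 33 of 124. Grik2 was higher in 13 types, Gria3 and Gria4 in 11 each and Gria2 (8 by DESeq2) and Grik1 in 5 each. Grik4 was lower in all 14 types (12 by DESeq2), while it was lower than in SPF mice in 6. Between CGF and SPF mice Grik4 passed in 0 of 14 types by edgeR and by DESeq2. At an unadjusted p under 0.05 it was higher in CGF mice in 6 types and lower in 0. In Sst-like nuclei Grik4 was 0.366, 0.484 and 0.502 in GF and 0.875, 1.0 and 1.19 in CGF mice (log2 fold change -1.07, SE 0.17, adjusted p = 8.99e-06, edgeR; -0.83 with the trend removed), against 0.586, 0.671 and 0.678 in SPF mice. In corticothalamic-like nuclei it was 3.23, 3.42 and 4.41 in GF and 6.33, 6.35 and 6.41 in CGF mice (log2 fold change -0.61, SE 0.12, adjusted p = 5.66e-04, edgeR), against 4.62, 4.65 and 5.05 in SPF mice. All GF mice were below all CGF mice in both types. Grik3 was lower in 9 types (7 by DESeq2), Grik5 in 6 (3 by DESeq2), Gria1 in 5, Grik1 in 4, Gria4 in 2 and Grik2 in 1.

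CGF and SPF mice, both with a microbiota, differed in 2 pairs of Hip. Of 113 pairs, 1 was higher and 1 lower in CGF mice by edgeR (0.343% and 0.205% over all genes), with 17 and 4 at an unadjusted p under 0.05 and 4 and 1 by DESeq2. Both were in dentate granule-like nuclei. Grik2 was 24.7, 27.4 and 27.5 in CGF and 18, 18.9 and 21.4 in SPF mice (log2 fold change 0.51, SE 0.08, adjusted p = 0.0142, edgeR), and Grik3 was 0.382, 0.434 and 0.449 in CGF and 0.812, 0.945 and 0.99 in SPF mice (log2 fold change -1.06, SE 0.21, adjusted p = 0.0319, edgeR). The groups did not overlap for either gene. The call of Grik2 was lost without CGF mouse 17 (log2 fold change 0.49), CGF mouse 18 (0.47) or SPF mouse 30 (0.46), and that of Grik3 without any of CGF mice 17, 18 and 19 and SPF mice 30 and 31. The log2 fold change of Grik2 was above 0 in all 13 types of Hip, with a median of 0.33 against 0.04 over the 9 genes. By edgeR 12 of these did not pass, while Grik2 was higher in 4 types by DESeq2 and in 9 at an unadjusted p under 0.05. The Grik3 level of CGF mice was near that of GF mice, 0.362, 0.381 and 0.709. In PFC no pair passed by edgeR or DESeq2 (0.101% higher and 0.088% lower over all genes). There, 11 pairs, 6 of them of Grik4, were higher and 4 lower at an unadjusted p under 0.05. The log2 fold changes ranged from -0.71 to 0.78.

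Since the same mice gave both regions, the GF minus SPF change of the 8 shared types was compared between Hip and PFC in a fit of all 18 libraries. Of 72 pairs of gene and type, 34 differed, 32 with a lower change in Hip and 2 with a higher one, against 22.9% of pairs over all genes in either direction (11.9% lower and 11% higher). With the mouse as a replicate block, 39 differed (23.5% over all genes). Summed UMIs were higher in GF than in SPF libraries of PFC, whereas in Hip they overlapped and the median UMIs per nucleus were lower, at 4678 to 5905 in GF against 6172 to 7087 in SPF libraries. Thinned to the lowest mean UMIs per nucleus of a type, 29 of 69 pairs differed (18.5% over all genes). With the length and GC trend removed, 19 of 72 differed (16.6% over all genes). Gria3 differed in all 8 types, Grik2 in 7, Gria2, Gria4 and Grik1 in 5 each, and Gria1 in 2. Once the trend was removed, Gria4 differed in 5, Gria3 in 4, Grik1 and Grik2 in 3 each, Gria2 in 2, Grik3 and Grik4 in 1 each, and Gria1 and Grik5 in 0. As fitted, Grik3 and Grik5 differed in 1 type each, and Grik4 in 0 by edgeR, in 2 at an unadjusted p under 0.05 and in 0 by DESeq2.

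Grik2 in Sst-like nuclei had the smallest p of the 72. Its levels in Hip were 16, 20.3 and 21.4 in GF and 23.3, 24.2 and 27.2 in SPF mice, and in PFC 23.8, 24.1 and 26.8 and 12.7, 13.4 and 13.7. GF mice were thus below SPF mice in Hip and above them in PFC, and the changes differed (log2 -1.55, SE 0.16, adjusted p = 8.44e-09, edgeR). Gria4 crossed in the same way in Pvalb-like nuclei (log2 -1.32, SE 0.15, adjusted p = 2.05e-07, edgeR), with the levels given above, and in Sst-like nuclei (log2 -1.29, SE 0.14, adjusted p = 1.55e-08, edgeR). Grik1 in Sst-like nuclei (log2 -1.47, SE 0.17, adjusted p = 5.13e-08, edgeR) had 15.4, 16.1 and 16.4 in GF and 20.2, 22.6 and 25.6 in SPF mice of Hip, and 13.8, 14.1 and 16.6 and 7.65, 9.73 and 10.0 in PFC. Gria1 in the same type differed less (log2 -0.55, SE 0.14, adjusted p = 0.0030, edgeR) and did not cross, since it was lower in GF mice of Hip and did not pass in PFC. In Pvalb-like and Sst-like nuclei, Gria3, Gria4, Grik1 and Grik2 still differed with the trend removed, and Gria1 and Gria2 did not. Without the trend, however, the Hip changes of Grik2 in Sst-like and Gria4 in Pvalb-like nuclei turned positive. These pairs then no longer crossed between the regions.

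Both pairs with the opposite sign were glial. Grik3 in OPC-like nuclei had a higher change in Hip (log2 0.98, SE 0.27, adjusted p = 0.0109, edgeR), with 0.957, 1.3 and 1.59 in GF and 1.24, 1.33 and 1.36 in SPF mice of Hip and the fall in PFC given above. Grik5 in astrocyte-like nuclei was the other one (log2 0.55, SE 0.19, adjusted p = 0.0312, edgeR). Its call was lost with the mouse as a replicate block (adjusted p = 0.075) and with the trend removed (log2 0.10, adjusted p = 0.74). Among glia, Gria2 in microglia-like nuclei had the largest difference of the 34 (log2 -1.61, SE 0.25, adjusted p = 1.22e-05, edgeR).

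**Figure D3:**
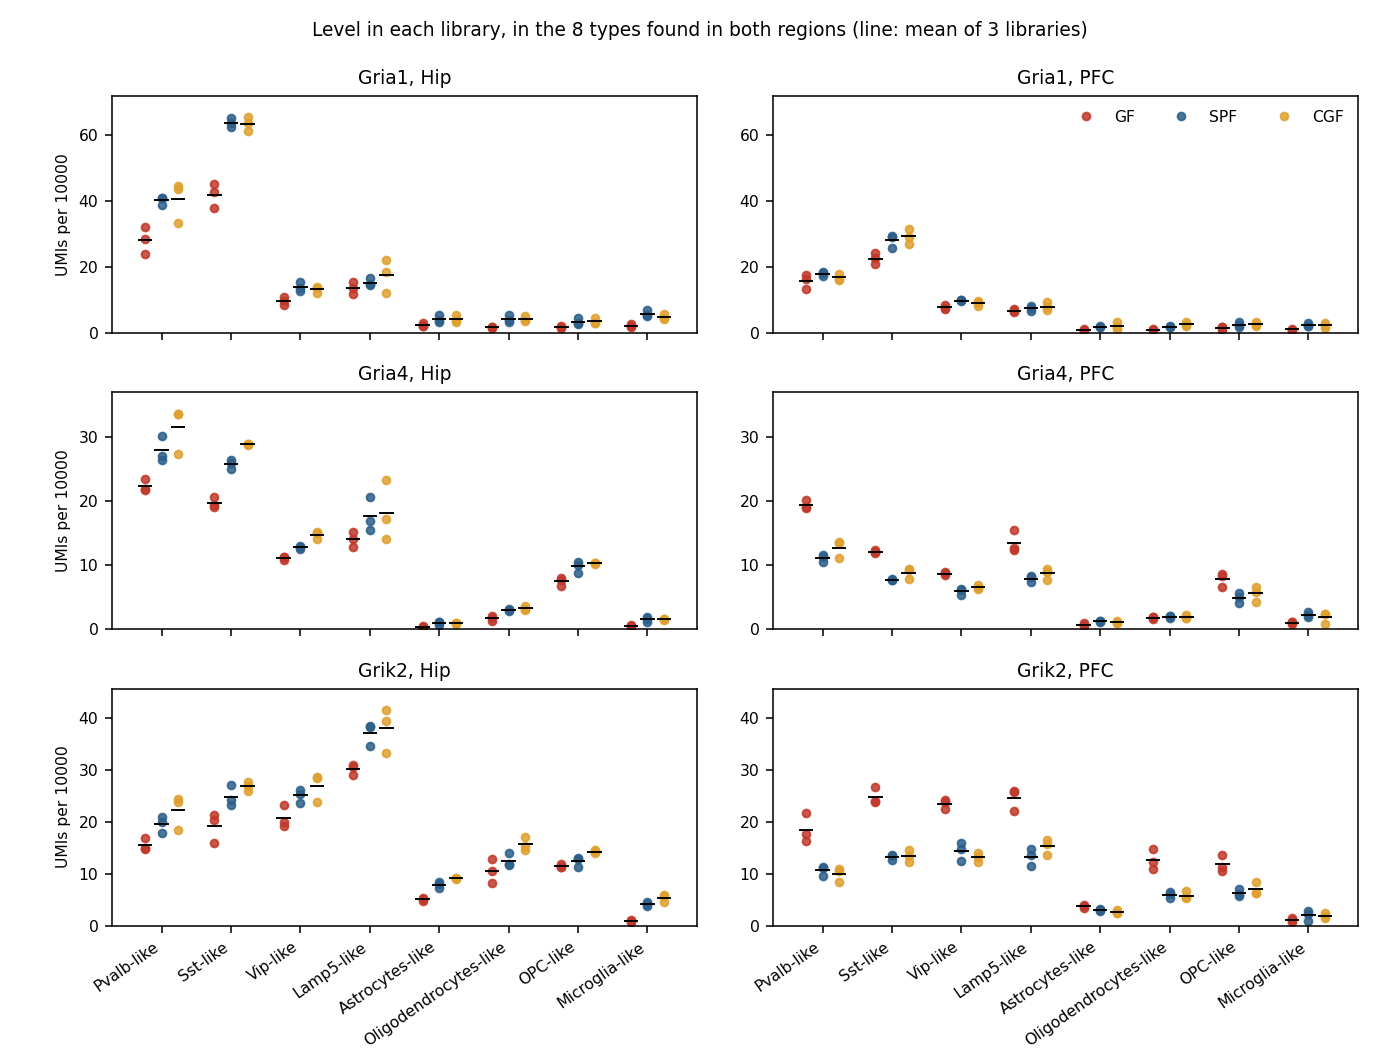
Levels of Gria1, Gria4 and Grik2 (UMIs per 10000 UMIs of the type) in the 8 shared types in each of the 18 libraries, by group and region; points are mice and lines the mean of 3. GF points of Gria4 and Grik2 lie below SPF and CGF points in Hip interneurons and above them in PFC interneurons, except a CGF point of Gria4 in Lamp5-like nuclei of Hip, while Gria1 is higher in Hip in all groups for Pvalb-like, Sst-like and Lamp5-like nuclei.

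Some genes kept a regional difference in all 3 groups. By edgeR, 11 of the 72 pairs were higher in Hip than in PFC in GF, SPF and CGF mice alike (1.46% over all genes), and 2 were higher in PFC (0.946%). Gria1 accounted for 6 of the 11, in Pvalb-like, Sst-like, Lamp5-like, astrocyte-like, oligodendrocyte-like and microglia-like nuclei. In these 3 glial types Gria1 was above the highest of the reference genes in 0 of 6 combinations of region and group, and its mean over excitatory types was 34.1 in Hip and 8.98 in PFC. The part of neuronal RNA in the glial differences was not tested. In Sst-like nuclei its log2 difference of Hip minus PFC was 0.87 in GF mice, 1.42 in SPF mice and 1.39 in CGF mice. Gria4 in Sst-like and Vip-like nuclei, Grik1 in Vip-like, Grik2 in astrocyte-like and Grik4 in Sst-like nuclei made up the rest, and Grik1 in Vip-like nuclei had the largest differences, 1.59, 2.40 and 2.14. The pairs higher in PFC were Grik3 in Sst-like nuclei, with -0.85, -0.80 and -1.0, and Grik4 in Vip-like nuclei, with -1.46, -1.95 and -1.65. With the mouse as a replicate block, the counts were 12 and 2.

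By group, 37 pairs were higher in Hip in SPF mice, 40 in CGF mice and 12 in GF mice (18.8%, 18.8% and 2.43% over all genes), and 9 were higher in PFC in each group (18.3%, 18.5% and 2.58%). Hip and PFC libraries differed in depth in SPF and CGF mice but much less in GF mice, and the part of depth in these counts was not tested by itself. Grik2 was higher in Hip in all 8 types in SPF and CGF mice and in 1 in GF mice. Grik3 was higher in no type of Hip in any group.

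**Figure D4:**
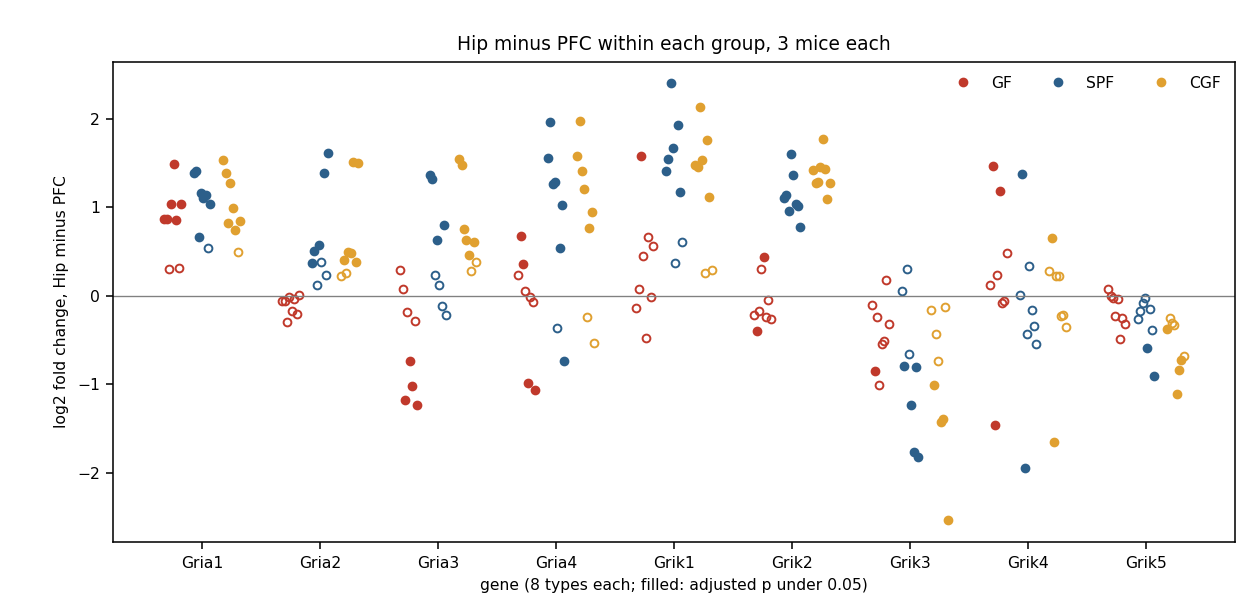
Log2 difference of Hip minus PFC in GF, SPF and CGF mice for the 9 genes in the 8 shared types; filled points passed an adjusted p under 0.05 by edgeR in a fit of 18 libraries. Gria1 lies above 0 in all groups in most types, and Grik2 lies above 0 in SPF and CGF mice and nearer 0 in GF mice.

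The genes whose mean log2 levels over the 27 types were most like those of each member were sought among 13552 genes. The correlations describe the types and carry no test, since types share libraries and free RNA. The AMPA receptor genes were most like the following (Pearson r): Gria1 like Gm42609 (0.95) and Dgkg (0.94), Gria2 like Nrcam (0.86) and Dok6 (0.83), Gria3 like Rbfox1 (0.90) and Opcml (0.89) and Gria4 like Dcx (0.91) and Nipal2 (0.88). Of the kainate receptor genes, Grik1 was most like Gm12120 (0.89) and Kcnip1 (0.89), Grik2 like 5330434G04Rik (0.87) and Snrpn (0.85), Grik3 like Rnf152 (0.81) and Tshz3 (0.78), Grik4 like Pcsk2os1 (0.76) and Kcnt2 (0.74) and Grik5 like Apba2 (0.87) and Gucy1a2 (0.83). Among the 9 genes themselves, Gria1 and Gria3 were most alike with an r of 0.75, Gria4 and Grik1 had 0.65, as had Grik4 and Grik5, and Grik1 and Grik5 had the lowest with -0.34.

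A list of 34 other genes of these receptors, their auxiliary subunits, scaffolds, extracellular partners, editing enzyme and related subunits, was compared between GF and SPF mice in the same fits. In Hip, 47 of 390 pairs were higher and 100 lower by edgeR, with a median log2 fold change of -0.19, against 17.9% higher and 15.3% lower over all genes (3.98% and 34.4% over genes at least as long as the shortest of the 9). The auxiliary subunits of kainate receptors, Neto1 and Neto2, were lower in 12 of 26 pairs and higher in none. AMPA receptor auxiliary subunits were higher in 15 and lower in 26 of 137 pairs, scaffolds and trafficking genes in 15 and 32 of 137, and Adarb1, the enzyme that edits Gria2, was lower in 5 of 13 types. Extracellular clustering genes were higher in 17 and lower in 8 of 51 pairs, and C1ql3 alone made 13 of the 17. C1ql3, a secreted C1q-like protein of synapses, was higher in all 13 types of Hip, and in dentate granule-like nuclei its levels were 6.5, 6.68 and 6.8 in GF and 1.82, 1.84 and 1.95 in SPF mice (log2 fold change 1.71, SE 0.08, adjusted p = 1.66e-06, edgeR).

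Cnih2, a cornichon that accompanies AMPA receptors, was higher in 11 types, with 0.748, 0.77 and 0.932 in GF and 0.244, 0.254 and 0.362 in SPF mice in CA1-like nuclei (log2 fold change 1.36, SE 0.16, adjusted p = 6.72e-05, edgeR), and Olfm1, a secreted olfactomedin found with AMPA receptors, in 9 (5 without SPF mouse 30). Neto1, which slows kainate receptors, was lower in 10 types, with 0.0864, 0.253 and 0.288 in GF and 1.13, 1.16 and 1.18 in SPF mice in microglia-like nuclei (log2 fold change -2.45, SE 0.30, adjusted p = 1.39e-06, edgeR). Grip1, a PDZ scaffold that binds the tails of AMPA receptors, was lower in 10 types too, with 0.155, 0.19 and 0.378 in GF and 1.0, 1.57 and 1.65 in SPF mice in oligodendrocyte-like nuclei (log2 fold change -2.53, SE 0.25, adjusted p = 1.45e-06, edgeR). Both examples come from glia of Hip in which markers of other glia were lower in GF mice too, and their part was not tested. Grid1, a delta subunit, was lower in 9. With the length and GC trend removed, C1ql3 was higher in 8 types, Cnih2 in 6 and Olfm1 in 9, while Neto1 was lower in 7, Grip1 in 1 and Grid1 in 2.

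In PFC, 84 of 397 pairs of the list were higher and 101 lower, with a median of -0.04, against 24.5% and 23.9% over all genes. Neto1 and Neto2 were higher in 18 and lower in 2 of 27 pairs, and Neto2 in 11 types (7 with the length and GC trend removed), with 1.22, 1.4 and 1.86 in GF and 0.695, 0.742 and 0.772 in SPF mice in corticothalamic-like nuclei (log2 fold change 1.18, SE 0.15, adjusted p = 4.63e-06, edgeR). Abhd6, a hydrolase that binds AMPA receptors, was higher in all 13 types tested, with 1.22, 1.32 and 1.34 in GF and 0.386, 0.485 and 0.537 in SPF mice in Pvalb-like nuclei (log2 fold change 1.55, SE 0.16, adjusted p = 1.69e-08, edgeR). Nptxr, the neuronal pentraxin receptor, was lower in all 14 types, with 0.355, 0.415 and 0.438 in GF and 1.08, 1.24 and 1.34 in SPF mice in Pvalb-like nuclei (log2 fold change -1.49, SE 0.16, adjusted p = 5.60e-08, edgeR). Dlg4, the gene of PSD-95, was lower in 13 types, as was Gripap1, a partner of Grip1 in receptor recycling, and Dlg4 had 0.554, 0.592 and 0.679 in GF and 1.31, 1.36 and 1.44 in SPF mice in Pvalb-like nuclei (log2 fold change -1.06, SE 0.14, adjusted p = 1.62e-06, edgeR). AMPA receptor auxiliary subunits were higher in 11 and lower in 28 of 133 pairs, scaffolds in 38 and 42 of 148, clustering genes in 4 and 17 of 47, and Adarb1 was lower in 6 of 14. Between CGF and SPF mice the list had 6 of 390 pairs higher and 1 lower in Hip (0.343% and 0.205% over all genes). In PFC it had 1 of 397 higher and 2 lower (0.101% and 0.088% over all genes).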

How the data were processed

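Single nuclei of Hip and PFC of 9 mice were sequenced on 10x Genomics droplets as 18 libraries. The authors deposited, per library, a matrix of raw counts of UMIs for 30905 genes in the barcodes called as cells, without normalization or further filter. The matrix headers name Cell Ranger 3.1.0, and the submitters' processing notes name CASAVA 1.8 and mm10. The labels name a version 3.1 kit in one place and an older kit and Cell Ranger in another, and whether intronic reads were counted is not given in the sources used here, so that levels may mix spliced and unspliced RNA. The labels gave group and region, and a mouse's number is shared by its Hip and PFC libraries. A run table of the study appears to give GF mice 6 and 7 each other's numbers in both regions, which leaves groups and pairs of libraries as they are. Deviations from the group means of both regions of a mouse correlated by -0.00236 to 0.170 over 72 pairs of mouse and type, with a median of 0.0659, above 0 in 71 and above 0.1 in 13.

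A nucleus was kept if it had at least 200 genes and no more than 10% of its UMIs from mitochondrial genes. The 2000 most variable genes, reduced to 30 components, were clustered per region by the Leiden algorithm at a resolution of 2. Clusters were named by marker lists, and the naming rule was revised after marker levels of the clusters, but no value of the 9 genes, had been seen. Excitatory clusters without a clear type, which held 11.1% to 25.0% of all nuclei of a group and region, were left out, and nuclei needed at least 1 UMI of a marker of their type. Each type had at least 10 nuclei in every library. Likely doublets, the top 0.8% per 1000 nuclei by similarity to simulated sums of nuclei, were removed in an alternative only.

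UMIs were summed per library and type, so that the mouse is the replicate. The sums of 9 libraries per type and region were tested with edgeR 4.0.16 (filterByExpr, TMM, quasi-likelihood F test), with Benjamini-Hochberg adjustment over all genes tested in the type and a threshold of 0.05. The SE is the absolute log2 fold change over the square root of F. For the 8 shared types all 18 libraries were fitted for differences between regions. Neighbouring types were compared by exact two-sided paired sign-flip tests over 9 mice (512 flips). The span and GC content of genes were taken from GENCODE vM21 for 30766 genes (99.55%). Tests were tried on simulated counts with known changes. With few UMIs, intervals are wide, and values below about 0.1 per 10000 rest on few molecules. The edgeR p-values rest on an estimate of the spread between mice within groups, with 3 mice per group, shared by all groups of a fit. Sign-flip p-values rest on the 9 mice of all groups together.

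Alternatives were DESeq2 1.42.0, RLE factors, no filter on low counts, thinning to the lowest mean UMIs per nucleus of a type, removal of the length and GC trend, only the 6 libraries of the groups compared, no doublets, no marker gate, coarser clustering (10 components, resolution 1), the mouse as a replicate block, each library left out and, added after seeing the data, scaling by library totals and adjustment of neighbouring types over all genes. The named genes were the 9 members, the 2 genes most like each over the types by the mean of log2(level + 0.1), 5 neuronal reference genes and, from a list of 34 genes of these receptors, the 3 called in the most types per region and direction of GF against SPF mice, ties going to the larger median fold change, of which 1 gene is not reported here. The members and lists were chosen with earlier results of these data known. C1ql2 was left out in dentate granule-like nuclei, of which it is a marker. Software was Python 3.11.15 with scikit-learn 1.9.0, leidenalg 0.10.2, pandas 2.3.3, numpy 2.4.6 and scipy 1.17.1 and R 4.3.3.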

Additional observations from a re-analysis of the deposited data

Results flagged for a closer look

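The change between GF and SPF mice differed between Hip and PFC in at least 1 type for 8 of the 9 genes. This was the edgeR test of the difference itself in the 8 types that both regions share. How many of all genes differed in at least 1 of these types was not counted. Gria3 differed in 8 of the 8 types, Grik2 in 7, Gria2, Gria4 and Grik1 in 5 each and Gria1 in 2, all with a lower change in Hip. Grik3 differed in 1 type, OPC-like nuclei, and Grik5 in 1, astrocyte-like nuclei, both with a higher change in Hip. The Grik5 difference did not pass with the mouse as a replicate block (adjusted p = 0.075, edgeR) or with the length and GC trend of each library removed (log2 0.10, adjusted p = 0.74). With that trend removed both Gria1 differences were lost as well, at -0.08 in Pvalb-like (adjusted p = 0.77) and -0.08 in Sst-like nuclei (adjusted p = 0.69). Also with it removed, Gria3 differed in 4 types, Grik1 and Grik2 in 3 each and Gria2 in 2, while Gria4 kept its count of 5, Grik3 its 1, and Grik4 differed in 1. Over all genes 22.9% of pairs differed. Of the 72 pairs of these genes 34 differed, and 19 did with the trend removed, where 16.6% did over all genes. The GF libraries had more UMIs than the others in PFC, and in Hip fewer UMIs per nucleus than the SPF libraries (library medians of 4678 to 5905 against 6172 to 7087). Thinned to the lowest mean UMIs per nucleus of a type, 29 of 69 pairs differed (18.5% over all genes).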

How the results depend on the processing

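With the length and GC trend of each library removed, GF mice had 10 pairs higher and 16 lower than SPF mice in Hip (7 and 11 against CGF mice), 19 lower than SPF and 23 lower than CGF mice in PFC, and 19 pairs differed between regions. Of the 60 pairs called in Hip, 14 then changed sign, 30 no longer passed and 16 still did. Of the 79 in PFC these were 5, 17 and 57. In Hip the log2 fold changes that turned positive were, for Grik2, 0.29 in dentate granule-like (adjusted p = 0.0051, edgeR), 0.145 in CA1-like, 0.144 in CA3-like, 0.117 in Pvalb-like, 0.083 in Sst-like, 0.093 in Vip-like and 0.156 in astrocyte-like nuclei. For Gria4 they were 0.053 in Pvalb-like, 0.126 in Vip-like, 0.03 in oligodendrocyte-like and 0.009 in OPC-like nuclei, for Gria3 0.117 in Pvalb-like and 0.065 in Sst-like nuclei, and for Grik4 0.147 in dentate granule-like nuclei. In PFC, Gria2 became -0.11 in layer 5-like, -0.061 in near-projecting-like and -0.023 in intratelencephalic-like nuclei, and Grik5 0.108 in Pvalb-like and 0.037 in astrocyte-like nuclei. The cause was not tested.

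Coarser clustering gave fewer types, with 53 pairs tested in PFC in place of 125, and with them 15 pairs higher and 19 lower in GF than SPF mice of PFC, 15 and 20 against CGF mice, 15 that differed between regions, 5 higher in Hip and 0 higher in PFC in all groups, and 23 neighbouring types of PFC that differed. With neighbours adjusted over all genes, 31 differed in Hip and 0 in PFC, an adjustment that passes all or none of the pairs at the smallest possible p, 0.0039. Scaled by library totals, 3 pairs were higher in GF than CGF mice in Hip. TMM moved the median of all genes for GF minus SPF by -0.18 to 0.08 in Hip and by -0.15 to 0.23 in PFC. Between CGF and SPF mice of Hip, 4 pairs were higher by DESeq2 and 4 higher and 2 lower without a filter.

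Leaving out 1 library gave 54 to 61 pairs lower in GF than SPF mice and 57 to 68 lower than in CGF mice in Hip, with 0 to 0 higher in both. In PFC it gave 44 to 52 higher and 20 to 33 lower than SPF, and 40 to 46 and 30 to 40 against CGF mice. For CGF against SPF mice it gave 0 to 2 higher (0 without CGF mouse 17 or 18 or SPF mouse 30, 2 without CGF mouse 19 or GF mouse 5 or 6) and 0 to 1 lower in Hip (0 without CGF mouse 17, 18 or 19 or SPF mouse 30 or 31), and 0 to 0 in PFC. It gave 30 to 37 pairs that differed between regions, 8 to 11 higher in Hip and 2 to 3 in PFC in all groups, and 41 to 45 and 38 to 43 neighbouring types that differed in Hip and PFC.

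With the mouse as a replicate block, 39 pairs differed between regions, 12 were higher in Hip and 2 in PFC in all groups. Levels of types with few UMIs limit what could be detected.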
